A study of Mus musculus with 8 samples.

Results

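The immunoglobulin heavy and light chain genes were represented by 56 of the 45101 probe sets on the array. A probe set is a group of short probes whose signals are summarised as 1 value, and it was the unit throughout. Probe sets were taken when any annotated gene symbol started with a heavy chain constant or variable gene name, with Igk, or with the lambda names Iglc or Iglv, and 6 probe sets of Ighmbp2 and Igll1 were dropped. The rule used no measured value, but it was chosen with earlier results of these data known. By locus, 23 probe sets were annotated to the heavy chain, 29 to kappa and 4 to lambda. The annotation gave 1 symbol to 43 of them and several symbols to 13. Of the heavy chain constant genes, Ighm, Ighg3 and Igha appeared as symbols, and the other constant genes were not analysed here.

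All 8 arrays measured RNA of cells with a GFP reporter for AID, the cytidine deaminase needed for class switching and for somatic hypermutation. The 4 groups of 2 arrays were GFP-positive and GFP-negative cells of BCR-ABL1 bone marrow, and GFP-positive and GFP-negative splenic B cells after stimulation with LPS plus IL-4. BCR-ABL1 is the fusion kinase of Philadelphia chromosome-positive leukaemia. How the kinase was delivered, the age and strain of the mice, how cells were purified before sorting and whether the 2 arrays of a group are separate animals or cultures are not stated in the labels, so p-values measure only the spread between these arrays, which may be technical.

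An antibody is built from 2 identical heavy and 2 identical light chains. B-cell precursors join V, D and J segments at the heavy chain locus first, using the RAG recombinase, and express the mu chain (Ighm) with a surrogate light chain made of VpreB and Igll1 products. They then join V and J segments at kappa, or at lambda. Mature B cells stimulated through Toll-like receptor 4 by LPS can secrete antibody, and with IL-4 they switch from mu to other constant regions. V segments lie in large families of similar sequence, so a probe set named for 1 variable gene may also bind transcripts of relatives, and probe sets with an x or s in their name share probes with related transcripts by design.

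Signals were linear intensities after quantile normalization, with values under 32 set to 32 (the floor). A probe set was tested when its mean log2 signal reached the 40th percentile, a signal of 51.0. That left 44 of the 56 immunoglobulin probe sets, 16 heavy, 24 kappa and 4 lambda. Of these, 18 lay above that level in all 4 groups, 2 in BCR-ABL1 GFP-positive cells and both spleen groups, and 24 in the spleen groups only, which therefore had to be lower in BCR-ABL1 cells. The 12 that were not tested lay between 32 and 68.2 on every array. They were 7 heavy chain probe sets (1 for Ighm, 2 for Ighg3 and 4 with several heavy chain symbols) and 5 kappa probe sets. Tests used limma on all 8 arrays, with Benjamini-Hochberg adjustment over the 27022 probe sets tested, and a probe set was called at an adjusted p under 0.05. Log2 differences are GFP-positive minus GFP-negative, or BCR-ABL1 minus spleen, and are given with their SE. No test compared signals between probe sets. Signals of separate probe sets were counted against a level, summed over marker genes, or ranked to pick the brightest for a listed gene.

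Across all probe sets, the arrays of a group had Spearman correlations of 0.984 to 0.996. The spleen GFP-positive arrays correlated at 0.952 to 0.955 with the BCR-ABL1 arrays and at 0.842 to 0.850 with the spleen GFP-negative arrays. The spleen GFP-negative arrays stood apart in several measures. Trimmed mean signals before normalization were 591 to 596 on the other arrays and 479 to 499.7 on these, and the 3' to 5' ratio of the Gapdh control averaged 1.43 to 1.47 in the other groups and 1.91 in this one. They also held markers of other cells. The 9 myeloid markers on the array had summed signals of 344 to 368 in spleen GFP-positive cells, against 73729 to 74687 in spleen GFP-negative cells, and 4 of them were at the floor on both spleen GFP-positive arrays. In spleen GFP-negative cells none of them was at the floor. Summed signals of the 8 T and NK cell markers were 604 to 619.9 in spleen GFP-positive cells and 14115 to 15656 in spleen GFP-negative cells. Of the tested markers, 8 of 8 myeloid and 7 of 7 T and NK cell genes were lower in spleen GFP-positive cells. The B cell markers were present in every group, with summed signals of 27273 to 28542 on the BCR-ABL1 arrays and of 36197 to 41299 on the spleen arrays. By gene they went both ways between the sources. Of the 6 tested, 3 were higher and 3 lower in BCR-ABL1 GFP-positive than in spleen GFP-positive cells. Among GFP-negative cells, 2 were higher, 3 lower and 1 not called in BCR-ABL1 cells. The part of this cell mixture in the spleen results was not tested, and in bulk RNA fewer cells of a type cannot be told apart from less RNA per cell.

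Immunoglobulin signal was concentrated in the spleen groups. Both arrays exceeded a signal of 1000 for 3 of the 56 probe sets in BCR-ABL1 GFP-positive cells, 3 in BCR-ABL1 GFP-negative cells, 31 in spleen GFP-positive cells and 32 in spleen GFP-negative cells. Both arrays exceeded 10000 for 0, 0, 6 and 13 probe sets in the same order of groups. Conversely, 22 of the 56 probe sets were at the floor on both arrays of each BCR-ABL1 group, against 6 in spleen GFP-positive and 11 in spleen GFP-negative cells. Before normalization, 34.0% to 35.0% of all probe sets were below 32 on single BCR-ABL1 arrays. The range was 33.0% to 34.3% on spleen GFP-positive and 27.5% to 29.3% on spleen GFP-negative arrays. These shares are for single arrays before normalization, so they are no matching background for the counts on both arrays after it.

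Heavy chain constant regions come first, because mu is the chain a precursor makes before any light chain. A pair of Ighm probe sets carried strong signal in BCR-ABL1 cells, and neither differed between the GFP fractions there beyond the spread of the arrays. Ighm probe set 1427329_a_at had signals of 5182 and 5403 in BCR-ABL1 GFP-positive cells, against 5289.7 and 5355 in BCR-ABL1 GFP-negative cells. In spleen it had 8489 and 7980.04 in GFP-positive cells, against 11839 and 12332 in GFP-negative cells. The BCR-ABL1 fractions overlapped, and both spleen groups were above them. Its log2 difference was -0.01 ± 0.043 in BCR-ABL1 cells (limma adjusted p = 1.00) and -0.55 ± 0.043 in spleen (adjusted p = 7.06e-06).

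Ighm probe set 1427351_s_at had 7437 and 8402 in BCR-ABL1 GFP-positive cells, against 7811 and 7218 in BCR-ABL1 GFP-negative cells. Spleen signals were 15349 and 15891 in GFP-positive cells, against 17408 and 17408 in GFP-negative cells. The BCR-ABL1 fractions overlapped again. The difference was 0.07 ± 0.059 in BCR-ABL1 cells (limma adjusted p = 0.827) and -0.16 ± 0.059 in spleen (adjusted p = 0.0401). That spleen call was lost without any 1 of the 4 spleen arrays (adjusted p of 0.173 and 0.0724 without either GFP-positive array, and of 0.157 and 0.155 without either GFP-negative array), and with the replicate number as a block (0.0508). The call was also lost with arrays shifted to the same median (limma adjusted p = 0.215) and with a floor of 64 (0.056). No filter (0.146), eBayes without trend (0.150) and array weights (0.231) ended it too. Over all alternatives its adjusted p ran from 0.00317 to 0.231.

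The remaining tested Ighm probe sets were near the floor in BCR-ABL1 cells and split in spleen. Of all 10 tested, 5 were higher, 4 lower and 1 not called in spleen GFP-positive cells, so probe sets of the same symbol disagreed in direction. Those that were higher had log2 differences between 0.50 and 1.31, and those that were lower between -2.79 and -0.16.

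Among the higher ones, Ighm 1425247_a_at was at 32 on all 4 BCR-ABL1 arrays, and it had 9139 and 9925 in spleen GFP-positive cells, against 6372 and 5987 in spleen GFP-negative cells (0.62 ± 0.099, limma adjusted p = 0.0005). Ighm 1425324_x_at had 36.6 and 40.3 in BCR-ABL1 GFP-positive cells, against 41.1 and 38.0 in BCR-ABL1 GFP-negative cells. In spleen it had 5271 and 3848 in GFP-positive cells, against 2229 and 1482 in GFP-negative cells (1.31 ± 0.22, adjusted p = 0.000703). In both, the spleen fractions did not overlap and the GFP-positive arrays were the higher. Ighm 1427756_x_at, 1427869_at and 1427870_x_at were at 32 on all 4 BCR-ABL1 arrays. In the first of them, spleen GFP-positive cells had 3668 and 3805, against 1819 and 1609.7 in spleen GFP-negative cells (1.13 ± 0.12, adjusted p = 3.83e-05). For 1427869_at the spleen signals were 4351 and 4387 in GFP-positive cells, against 3311 and 2894 in GFP-negative cells (0.50 ± 0.11, adjusted p = 0.00382). For 1427870_x_at they were 3974 and 3595 in GFP-positive cells, against 1674 and 1391 in GFP-negative cells (1.31 ± 0.13, adjusted p = 3.35e-05). All 3 were higher in spleen GFP-positive cells with no overlap.

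Among the lower ones, Ighm 1425385_a_at had 36.5 and 36.3 in BCR-ABL1 GFP-positive cells, against 36.6 and 38.8 in BCR-ABL1 GFP-negative cells. In spleen it had 1401 and 1321 in GFP-positive cells, against 9599 and 9251 in GFP-negative cells, a 6.93-fold lower signal (-2.79 ± 0.11, limma adjusted p = 1.69e-07). This was the lowest difference of the Ighm probe sets, with the spleen fractions far apart. Ighm 1452535_at had 69.2 and 72.7 in BCR-ABL1 GFP-positive cells, against 54.2 and 58.6 in BCR-ABL1 GFP-negative cells (0.33 ± 0.13, adjusted p = 0.331). Its spleen signals were 330.1 and 328 in GFP-positive cells, against 823 and 917 in GFP-negative cells (-1.40 ± 0.13, adjusted p = 1.67e-05). The BCR-ABL1 fractions did not overlap but missed the threshold. Ighm 1451949_at stayed low everywhere, with 56.3 and 50.3 in BCR-ABL1 GFP-positive cells, 49.2 and 54.1 in BCR-ABL1 GFP-negative cells, 74.1 and 66.6 in spleen GFP-positive cells, and 65.1 and 99.1 in spleen GFP-negative cells, and it was not called between the fractions of either source. Without spleen GFP-negative replicate 1 it was called lower in spleen (-0.51, adjusted p = 0.0142).

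The tested probe sets of the switched constant regions had signals of at most 87.7 in BCR-ABL1 cells and of at least 459 in spleen. Igha, the constant region of IgA, was lower in spleen GFP-positive cells by all 3 of its probe sets. Igha 1421653_a_at was at 32 on all 4 BCR-ABL1 arrays, and it had 2059 and 1741 in spleen GFP-positive cells, against 16671 and 16162 in spleen GFP-negative cells, an 8.67-fold lower signal (-3.12 ± 0.11, limma adjusted p = 1.47e-07). Igha 1425763_x_at had 32 and 36.4 in BCR-ABL1 GFP-positive cells, against 40 and 40.4 in BCR-ABL1 GFP-negative cells (-0.24 ± 0.11, adjusted p = 0.483). In spleen it had 1663 and 1679.9 in GFP-positive cells, against 18724 and 17352 in GFP-negative cells (-3.43 ± 0.11, adjusted p = 7.76e-08). Its signal was 10.8-fold lower in spleen GFP-positive cells. Igha 1429381_x_at had 87.7 and 61.3 in BCR-ABL1 GFP-positive cells, against 70.5 and 83.4 in BCR-ABL1 GFP-negative cells. Its spleen signals were 674 and 782 in GFP-positive cells, against 10352 and 11056 in GFP-negative cells (-3.88 ± 0.18, adjusted p = 4.91e-07). All 3 probe sets thus ran the same way in spleen, and none was called between the BCR-ABL1 fractions.

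Ighg3, the constant region of IgG3, gave opposite directions by its 2 tested probe sets. Ighg3 1427503_at had 66.1 and 66.8 in BCR-ABL1 GFP-positive cells, against 64.4 and 67.7 in BCR-ABL1 GFP-negative cells. In spleen it had 2469 and 2817 in GFP-positive cells, against 5537 and 5628 in GFP-negative cells (-1.08 ± 0.10, limma adjusted p = 2.63e-05). Ighg3 1447998_at had 32.5 and 35.3 in BCR-ABL1 GFP-positive cells, against 32 and 37.6 in BCR-ABL1 GFP-negative cells. Its spleen signals were 1633 and 1450.3 in GFP-positive cells, against 459 and 508 in GFP-negative cells (1.67 ± 0.14, adjusted p = 1.35e-05). The spleen fractions were fully separated by both probe sets, so the annotation alone gives Ighg3 no single direction.

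The heavy chain variable gene Ighv14-2 (1455530_at) was, beside the pair of Ighm probe sets, the other one above 1000 in both BCR-ABL1 groups. It had 1141 and 1182 in BCR-ABL1 GFP-positive cells, against 1798 and 1359.5 in BCR-ABL1 GFP-negative cells. Spleen signals were 2216 and 2321 in GFP-positive cells, against 10919 and 10552 in GFP-negative cells. Neither pair of fractions overlapped, and GFP-positive cells were lower in each source. The difference missed the threshold in BCR-ABL1 cells (-0.43 ± 0.12, limma adjusted p = 0.129) and passed it in spleen (-2.24 ± 0.12, adjusted p = 7.93e-07). In BCR-ABL1 cells it passed with array weights (-0.43, limma adjusted p = 0.032) and with the 4 BCR-ABL1 arrays alone (-0.42, adjusted p = 0.0295). The other fits that kept every BCR-ABL1 array did not call it. Without BCR-ABL1 GFP-negative replicate 2 the difference was -0.63, and over all alternatives it ran from -0.63 to -0.23.

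Between the GFP fractions of BCR-ABL1 cells, all calls of the reported fit were among the 24 tested kappa probe sets. By limma, 2 of the 44 tested immunoglobulin probe sets were higher in GFP-positive cells, where 1.57% of all probe sets tested were called higher. Another 5 were lower, where 1.23% of all were called lower, and 2.8% were called in either direction. Of the 16 heavy chain probe sets 0 were called, with 2 at an unadjusted p under 0.05, and of the 4 lambda probe sets 0 were called, with 1 at an unadjusted p under 0.05. Over the 44, the median log2 difference was 0.00, as it was over all probe sets tested, and 10 of the 44 were at the floor on all 4 BCR-ABL1 arrays, which leaves no measured difference for them. The arrays did not overlap for 17 members: GFP-positive cells were above in 6 and below in 11. The share without overlap over all probe sets was not computed. With 2 against 2 arrays, full separation has an exact permutation two-sided p of 0.333. This count is therefore not read as a result about the members.

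The 5 lower probe sets included every tested one that is annotated to the kappa constant region. The annotation of 1427455_x_at, 1427660_x_at and 1452417_x_at lists Igkc, the kappa constant gene, together with the joining segment Igkj1 and the variable genes Igkv6-23, Igkv4-53 and Igkv8-30. Probe set 1427455_x_at had 209.9 and 237 in BCR-ABL1 GFP-positive cells, against 444 and 467 in BCR-ABL1 GFP-negative cells, 2.04-fold lower (-1.03 ± 0.071, limma adjusted p = 0.000303). Probe set 1427660_x_at had 137 and 104 in BCR-ABL1 GFP-positive cells, against 215 and 243 in BCR-ABL1 GFP-negative cells (-0.94 ± 0.13, adjusted p = 0.00784). Probe set 1452417_x_at had 109 and 74.2 in BCR-ABL1 GFP-positive cells, against 182 and 202 in BCR-ABL1 GFP-negative cells (-1.09 ± 0.16, adjusted p = 0.0131). In none of the 3 did the fractions overlap. The calls of 1427660_x_at and 1452417_x_at were lost without either BCR-ABL1 GFP-negative array (adjusted p of 0.0542 and 0.0926, and of 0.0948 and 0.131), and that of 1452417_x_at also without the spleen GFP-negative replicate 2 array (0.0522). Over all alternatives their adjusted p ran from 0.00228 to 0.0926 and from 0.0023 to 0.131, with every difference below 0.

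The other lower probe sets were annotated to the kappa locus as a whole and to a variable gene. Igk 1452557_a_at had 162 and 146 in BCR-ABL1 GFP-positive cells, against 282 and 315 in BCR-ABL1 GFP-negative cells (-0.95 ± 0.077, limma adjusted p = 0.000627). Igkv8-30 1452463_x_at had 231 and 237 in BCR-ABL1 GFP-positive cells, against 387 and 442 in BCR-ABL1 GFP-negative cells (-0.82 ± 0.071, adjusted p = 0.000933). Because Igkv8-30 is also among the symbols of the 3 mixed probe sets, these 5 may share transcripts and are not 5 independent measurements. The same probe sets were bright in spleen, where 1452557_a_at had 14168 and 14029.9 in GFP-positive cells, against 17946 and 18066 in GFP-negative cells. Igkv8-30 had 15126 and 14967 in spleen GFP-positive cells, against 18269 and 18724 in spleen GFP-negative cells. In spleen too they were lower in GFP-positive cells, by -0.35 ± 0.077 (adjusted p = 0.0032) and -0.30 ± 0.071 (adjusted p = 0.005).

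A pair of kappa probe sets ran the other way. Igkv15-103 1427837_at had 94.8 and 96.3 in BCR-ABL1 GFP-positive cells, against 53.6 and 47.0 in BCR-ABL1 GFP-negative cells, 1.90-fold higher (0.93 ± 0.11, limma adjusted p = 0.00489). Its call was lost without BCR-ABL1 GFP-positive replicate 1 (adjusted p = 0.0632) or 2 (adjusted p = 0.0673), and over all alternatives its difference ran from 0.58 to 1.03. Igk 1425738_at had 343 and 330.5 in BCR-ABL1 GFP-positive cells, against 244 and 249 in BCR-ABL1 GFP-negative cells, 1.37-fold higher (0.45 ± 0.073, adjusted p = 0.0185). That call was lost without any 1 of the BCR-ABL1 arrays and without either spleen GFP-positive array (adjusted p of 0.0663 to 0.187), with differences from 0.40 to 0.49 over all alternatives. In both, the fractions did not overlap. So 2 probe sets with the same symbol, Igk, were called in opposite directions in the same cells.

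In spleen, most immunoglobulin probe sets were lower in GFP-positive than in GFP-negative cells. Of the 44 tested, 8 were higher and 30 lower by limma, against 44.9% higher and 33.3% lower among all probe sets tested, of which 78.2% were called. The share of members called, 86.4%, was thus near the share of all probe sets called. The median log2 difference was -0.54 over the members and 0.17 over all probe sets tested. The arrays of the fractions did not overlap for 39 members, 8 with GFP-positive cells above and 31 with GFP-positive cells below. Here too the share over all probe sets was not computed, so the count is not read as particular to the members. By locus, 6 heavy chain probe sets were higher and 9 lower, 1 kappa probe set was higher and 18 lower, and 1 lambda probe set was higher and 3 lower. With a shift of every array to the same median, the median over all probe sets became 0.51, and the share of calls that were higher was 71.1% in place of 57.4%. Spleen differences are therefore to be read relative to that shift.

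Kappa variable genes had the lower spleen signals in GFP-positive cells at a wide range of sizes. Among the largest were probe sets of Igkv6-14, Igkv6-23 and Igkv8-19, annotated jointly. Probe set 1427576_at had 198 and 247 in spleen GFP-positive cells, against 789 and 815 in spleen GFP-negative cells (-1.86 ± 0.18, limma adjusted p = 2.36e-05). Probe set 1427577_x_at had 225 and 227 in spleen GFP-positive cells, against 789.6 and 779 in spleen GFP-negative cells (-1.80 ± 0.12, adjusted p = 2.77e-06). In BCR-ABL1 cells both lay between 32 and 54.9 and neither was called. Another probe set with these symbols, 1451965_at, had 2752 and 2635 in spleen GFP-positive cells, against 3481 and 3414 in spleen GFP-negative cells (-0.36 ± 0.14, adjusted p = 0.0466). That call was lost without any 1 of the spleen arrays or either BCR-ABL1 GFP-positive array, and its difference was no longer below 0 when arrays were shifted to the same median (0.023).

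Igkv9-120, another kappa variable gene, had 2 tested probe sets. Probe set 1452536_s_at had 381 and 374 in BCR-ABL1 GFP-positive cells, against 375 and 357 in BCR-ABL1 GFP-negative cells. Spleen signals were 237 and 262 in GFP-positive cells, against 835 and 894 in GFP-negative cells (-1.80 ± 0.11, limma adjusted p = 1.77e-06). It was the only tested member called higher in BCR-ABL1 than in spleen cells, and that among GFP-positive cells (0.60 ± 0.11, adjusted p = 0.00258). Its other tested probe set, 1460423_x_at, was at the floor on 3 of the 4 BCR-ABL1 arrays, and it had 4426 and 4019 in spleen GFP-positive cells, against 8354 and 8065 in spleen GFP-negative cells (-0.96 ± 0.11, adjusted p = 8.08e-05). The probe sets of Igkv9-120 thus agreed in the spleen direction and not in whether BCR-ABL1 cells carried signal.

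Further kappa variable genes were lower in spleen GFP-positive cells. Igkv15-103, higher in BCR-ABL1 GFP-positive cells, had 2496 and 2569.9 in spleen GFP-positive cells, against 5949 and 6779 in spleen GFP-negative cells (-1.33 ± 0.11, limma adjusted p = 1.22e-05). Igkv4-68 1427857_x_at had 655 and 678 in spleen GFP-positive cells, against 1663 and 1212 in spleen GFP-negative cells (-1.09 ± 0.19, adjusted p = 0.000794), a call lost at an adjusted p of 0.0762 when arrays were shifted to the same median. Igkv4-72 1426201_at had 563 and 437 in spleen GFP-positive cells, against 1002 and 1042 in spleen GFP-negative cells (-1.04 ± 0.15, adjusted p = 0.000278). In all 3 the spleen fractions did not overlap. Igkv19-93 1427855_at, Igkv6-14 1427860_at, Igkv6-15 1427859_at and Igk-V21 1427858_at were lower by between -0.95 and -0.68. The kappa probe sets listing Igkc were also lower in spleen GFP-positive cells, by between -0.53 and -0.44, and the calls of 1427660_x_at and 1452417_x_at were lost without any 1 of the spleen arrays (adjusted p of 0.0501 to 0.0734, and of 0.07 to 0.151). Igkv14-111, Igkv6-20, Igkv5-39, Igkv19-93 1427856_a_at and a joint Igkv4-55 and Igkv4-68 probe set were not called. None of these 5 has a settled direction. Igkv5-39 was called lower without spleen GFP-negative replicate 1 (-1.35) and higher without replicate 2 of that group (0.87). Igkv19-93 1427856_a_at was called higher without replicate 1 (0.58) and lower without replicate 2 (-0.99), and the joint probe set was lower without replicate 2 (-0.85). With arrays shifted to the same median, Igkv6-20 (0.51) and Igkv14-111 (0.36) were called higher, and Igkv6-20 was so on the deposited scale too (0.35). Igk 1427757_at was the only kappa probe set called higher, with 439.6 and 461 in spleen GFP-positive cells, against 123 and 138 in spleen GFP-negative cells (1.79 ± 0.14, adjusted p = 6.13e-06).

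The 4 lambda probe sets were called in spleen and disagreed in direction. Iglv1 1427292_at, a lambda variable gene, had 3259 and 3207 in spleen GFP-positive cells, against 1347 and 839 in spleen GFP-negative cells (1.60 ± 0.20, limma adjusted p = 0.00014). Iglv1 1447918_x_at had 1402 and 1173 in spleen GFP-positive cells, against 2673 and 2535 in spleen GFP-negative cells (-1.02 ± 0.13, adjusted p = 0.000131). Both were at the floor on all 4 BCR-ABL1 arrays. Iglv1 1430523_s_at and the probe set 1424931_s_at annotated to Iglc1 and Iglv1 were lower by -0.78 ± 0.10 and -0.66 ± 0.13. In BCR-ABL1 cells these last lay between 35.8 and 64.1, and neither was called between the fractions.

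Between the sources, nearly every tested member was lower in BCR-ABL1 cells, but 24 of the 44 lay above the filter level in the spleen groups only. Those 24 had to be lower in BCR-ABL1 cells. The counts and medians that follow include them, so they were partly fixed by the filter and are no test of the members. Among GFP-positive cells 1 was higher and 41 lower, against 22.4% and 21.7% of all probe sets tested (44.1% in either direction). The median log2 difference over the members was -5.32, against -0.03 over all probe sets. Among GFP-negative cells 0 were higher, also at an unadjusted p under 0.05, and 43 lower, against 45.5% and 33.4% (78.9% in either direction), with a median of -5.55. The sources also differed in precursor markers. The 6 pre-B markers had summed signals of 29311 to 31050 on the BCR-ABL1 arrays, against 1011 to 2560 on the spleen arrays. By gene, 5 of the 6 were called higher and 1 lower in BCR-ABL1 cells, both among GFP-positive and among GFP-negative cells. The part of these markers in the immunoglobulin differences was not tested. Where a BCR-ABL1 group was at the floor on both arrays the ratio is a bound. Igha 1421653_a_at was at least 59.2-fold lower in BCR-ABL1 GFP-positive than in spleen GFP-positive cells, and at least 513-fold lower in the GFP-negative pair. Ighm 1425247_a_at was at least 298-fold lower among GFP-positive cells and at least 193-fold lower among GFP-negative cells. The heavy chain probe sets with strong BCR-ABL1 signal differed less. Ighm 1427329_a_at differed by -0.64 ± 0.043 among GFP-positive cells (1.56-fold lower, limma adjusted p = 9.9e-06) and by -1.18 ± 0.043 among GFP-negative cells (2.27-fold lower, adjusted p = 1.04e-07). Ighm 1427351_s_at differed by -0.98 ± 0.059 and -1.21 ± 0.059, and Ighv14-2 by -0.97 ± 0.12 and -2.78 ± 0.12.

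Set side by side, the GFP comparisons of the sources were as follows. The 2 probe sets higher in BCR-ABL1 GFP-positive cells were lower in spleen GFP-positive cells, and the 5 lower ones were lower in spleen too. Among the 37 not called in BCR-ABL1 cells, 8 were higher, 23 lower and 6 not called in spleen. The test of the difference between the GFP effects (BCR-ABL1 minus spleen) passed for 36 of the 44, against 69.8% of all probe sets tested. It was above 0 for 23, where 29.4% of all probe sets tested were called above 0. It was below 0 for 13, where 40.3% of all were called below 0. For 8 of the 36 the BCR-ABL1 arrays were all at the floor, so the tested difference is the spleen difference with its sign turned.

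Genes that act with immunoglobulin were read from lists, each gene by the brightest of its tested 1-symbol probe sets. In BCR-ABL1 cells, limma called 0 higher and 1 lower of 12 genes of the B-cell receptor complex and its proximal signalling, 2 higher of 6 surrogate light chain and recombination genes, 1 higher of 14 transcription factor genes of immunoglobulin loci and 1 higher of 15 secretion genes, where 1.57% of all probe sets tested were called higher and 1.23% lower. The lower one was Cd22, an inhibitory co-receptor, with 218 and 212 in BCR-ABL1 GFP-positive cells, against 743 and 728 in BCR-ABL1 GFP-negative cells (-1.77 ± 0.094, adjusted p = 9.56e-05). Cd79a and Cd79b, which carry the receptor's signal, had differences of -0.07 ± 0.029 and 0.00 ± 0.036 and were not called. The higher recombination genes were Rag1, with 2851 and 2647 in BCR-ABL1 GFP-positive cells, against 1007 and 939 in BCR-ABL1 GFP-negative cells (limma adjusted p = 0.00783), and Rag2 (0.72 ± 0.12, adjusted p = 0.0192). Vpreb1, a surrogate light chain gene, had 16600.4 on each array of BCR-ABL1 GFP-positive cells, against 17049 and 16671 in BCR-ABL1 GFP-negative cells, and was not called. Irf4, a transcription factor of the kappa enhancer, was higher by 0.21 ± 0.034 (adjusted p = 0.0199).

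Jchain, which joins the subunits of polymeric IgM and IgA, was the 1 secretion gene called in BCR-ABL1 cells. It had 859.8 and 735 in BCR-ABL1 GFP-positive cells, against 238 and 253 in BCR-ABL1 GFP-negative cells (1.70 ± 0.084, limma adjusted p = 7.21e-05). In spleen it ran the other way, with 4946 and 4926 in GFP-positive cells, against 11814 and 12207 in GFP-negative cells (-1.28 ± 0.084, adjusted p = 2.76e-06). The spleen lists had 3 higher and 7 lower of 12 receptor genes, 1 higher and 4 lower of 6 surrogate light chain and recombination genes, 2 higher and 9 lower of 14 transcription factor genes, and 9 higher and 3 lower of 15 secretion genes, where 44.9% of all probe sets tested were called higher and 33.3% lower. Beside Jchain, the plasma cell surface proteoglycan gene Sdc1 was lower in spleen GFP-positive cells, with 544 and 508, against 3277 and 3257 in spleen GFP-negative cells (-2.64 ± 0.078, adjusted p = 5.88e-08). Higher were Mzb1, an endoplasmic reticulum co-chaperone of antibody assembly (0.55 ± 0.044, adjusted p = 9.42e-06), and Pdia4, a protein disulfide isomerase (1.53 ± 0.11, adjusted p = 3.93e-06). The 9 plasma cell markers summed to 27969 to 28238 in spleen GFP-positive cells, against 35993 to 36804 in spleen GFP-negative cells, and to 22198 to 22916 in BCR-ABL1 GFP-positive cells, against 20350 to 20735 in BCR-ABL1 GFP-negative cells, and their part in the immunoglobulin differences was not tested. By gene these markers went both ways. Of the 8 tested, 3 were higher, 4 lower and 1 not called in spleen GFP-positive cells, and 2 were higher and 1 lower in BCR-ABL1 GFP-positive cells.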

How the data were processed

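The 8 samples, in 4 groups of 2, were each hybridised to a mouse Affymetrix array. The deposited values are linear signal intensities per probe set, made by the authors with GCOS 1.3 per the submitters' processing notes; how probes were summarised and arrays scaled is not stated. Trimmed means (2% trimmed) differed by a ratio of 1.24, so the arrays were quantile normalized, values under 32 were set to 32 and log2 was taken. The 64 control probe sets were left out, and 27022 of 45037 passed the filter (mean log2 of 5.67). limma 3.58.1 in R 4.3.3 (lmFit, eBayes with trend) fitted 1 mean per group on all 8 arrays, with 4 residual degrees of freedom, and Benjamini-Hochberg adjustment ran over all tested probe sets of a contrast. Exact permutation of 2 against 2 arrays cannot go below a two-sided p of 0.333, so calls rest on the model, and the number of arrays limits precision. Scripts were tested on simulated data with 50 changed probe sets in the BCR-ABL1 GFP comparison. The fit recovered 16% of log2 changes of 0.5, 54% of changes of 1 and 86% of changes of 2. A member not called there is thus not shown to be unchanged. Symbols came from the platform annotation; 27 of 28 matched RefSeq by Entrez ID and 0 changed. No genome build is named, so no coordinates are given. Values per array are given for tested constant-region members with 1 symbol and for the 10 variable or mixed members with the largest called difference in each GFP comparison, and genes outside the family come from the lists. The members and lists were chosen with earlier results of these data known. Alternatives were other scalings, floors, filters, eBayes settings, array weights, 4 arrays alone, a replicate block, 1-symbol members, a 2-fold limit and leaving out each array; scaling within a source and leaving out x and s probe sets were added after seeing the data.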

Additional observations from a re-analysis of the deposited data

Results flagged for a closer look

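The GFP effect differed between the sources, by the interaction term of the same limma fit (BCR-ABL1 minus spleen), for 36 of the 44 tested immunoglobulin probe sets, where 69.8% of all tested probe sets were called. Values are log2 differences. Igha had 3.12 at 1421653_a_at, 3.19 at 1425763_x_at and 3.82 at 1429381_x_at. Ighg3 had 1.09 at 1427503_at and -1.71 at 1447998_at. Ighm was above 0 at 1425385_a_at (2.74), 1452535_at (1.73), 1427329_a_at (0.55) and 1427351_s_at (0.23). It was below 0 at 1425324_x_at (-1.35), 1427870_x_at (-1.31), 1427756_x_at (-1.13), 1425247_a_at (-0.62) and 1427869_at (-0.50). Ighv14-2 had 1.81. Igk had 0.93 at 1425738_at, -1.94 at 1427757_at and -0.60 at 1452557_a_at. Among kappa variable genes the values were 1.03 for Igk-V21, 2.26 for Igkv15-103, 1.15 for Igkv19-93, 1.15 for Igkv4-68, 1.03 for Igkv4-72, 0.82 for Igkv6-14, 0.79 for Igkv6-15, -0.52 for Igkv8-30, and, for Igkv9-120, 1.84 at 1452536_s_at and 1.05 at 1460423_x_at. The joint Igkv6-14, Igkv6-23 and Igkv8-19 probe sets had 1.82 (1427576_at) and 1.59 (1427577_x_at). The 3 mixed probe sets listing Igkc had -0.50 (1427455_x_at), -0.49 (1427660_x_at) and -0.60 (1452417_x_at). Iglv1 had -1.60 at 1427292_at, 0.89 at 1430523_s_at and 1.02 at 1447918_x_at. In 20 alternatives, the calls of Ighm 1427351_s_at, 1427660_x_at and 1452417_x_at were lost in 11, 10 and 12, each including the omission of any 1 spleen array, with adjusted p-values of up to 0.146, 0.129 and 0.16. The call of Igkv4-68 was also lost on the deposited scale and with arrays shifted to the same median (limma adjusted p of 0.0816 and 0.165). That of Igkv4-72 was lost with that shift (adjusted p = 0.139). The call of Ighm 1427869_at was lost without any 1 GFP-positive array of either source. For 8 of the 36, all 4 BCR-ABL1 arrays were at the floor, so the value is the spleen difference with its sign turned. The spleen GFP-negative arrays, which carry the myeloid and T and NK cell markers given above, enter each value, and their part in it was not tested.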

How the results depend on the processing

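Members called higher and lower in BCR-ABL1 GFP-positive cells numbered 2 and 5. Leaving out 1 array gave 0 to 2 higher and 3 to 5 lower; no filter gave 3 lower, 1-symbol members 2 lower, the 2-fold limit 0 higher and 2 lower, and omitting x and s probe sets 1 lower. Over all probe sets, 756 of 27022 were called between the BCR-ABL1 fractions, 535 of 45037 without the filter and 263 at the 2-fold limit. Array weights gave 1963 calls and the 4 BCR-ABL1 arrays alone 2154. Fewer were called without any 1 BCR-ABL1 or spleen GFP-positive array. More were called without either spleen GFP-negative array. Among the members in spleen, 8 higher and 30 lower became 5 and 16 without x and s probe sets, and lower ones 14 at the 2-fold limit. Lower members among GFP-positive cells, 41 between the sources, were 25 without x and s probe sets, where higher ones, 1, were 0, as at the 2-fold limit; among GFP-negative cells, 43 lower were 26, and 0 higher became 1 without the filter. The 36 interaction calls were 23 at the 2-fold limit and 20 without x and s probe sets. Fewer members could be called without x and s probe sets, so those counts do not share the denominator of the reported ones. Any further cause was not tested. At the 2-fold limit, 11649 of all probe sets tested were called in spleen and 11624 for the interaction, against 21135 and 18855 without it. Leaving out 1 array gave 8 to 9 higher and 26 to 30 lower members in spleen and 32 to 37 interaction calls. Of the members called in the reported fit, only probe set 1451965_at changed sign, in spleen, to 0.023 with arrays shifted to the same median (adjusted p = 0.881). Of members not called, 4 passed the threshold with the opposite sign. In spleen these were Igkv6-20 (0.35 on the deposited scale, 0.51 with that shift, and -0.51 for the interaction) and Igkv14-111 (0.36 with that shift). Leaving out spleen GFP-negative replicate 1 or 2 gave 0.58 or -0.99 for Igkv19-93 1427856_a_at and -1.35 or 0.87 for Igkv5-39, and for the interaction -0.58 or 0.99 and 1.34 or -0.87. The median over all probe sets in spleen was 0.17 as reported, 0.35 on the deposited scale and 0.51 with that shift; for the interaction 28.4% of calls were then above 0, against 42.2%. That shift also moved the spleen values of Ighm 1452535_at to -0.76, Igkv4-72 to -0.39 and Igkv4-68 to -0.48. Igk 1425738_at in BCR-ABL1 cells had an adjusted p of 0.0663 to 0.187 without each BCR-ABL1 or spleen GFP-positive array. With the replicate block, counts were 2 higher and 5 lower in BCR-ABL1 cells, 8 and 29 in spleen, 1 and 41, 0 and 43 between sources, and 36 for the interaction. Same-numbered arrays deviated together at correlations of 0.110 in BCR-ABL1 cells and 0.272 in spleen, over 2 numbers, which does not show that the numbers pair them.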
